A study of Arabidopsis thaliana with 12 samples.

Results

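The UDP-glycosyltransferase (UGT) genes of Arabidopsis thaliana were read from whole-seedling ATH1 arrays as the probe sets that name 1 gene whose symbol begins with UGT and a digit. This gave 47 genes, each with 1 probe set, of 22746 probe sets tested. The gene table holds 58 genes with such a symbol. A further 3 probe sets name a UGT together with other genes and were left out.

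The series asked how seedlings of 3 genotypes respond to lincomycin, an antibiotic that blocks translation in plastids. The 6 groups of 2 arrays each were gun1-1 with and without lincomycin, abi4-102 with and without lincomycin, and wild-type Col-0 with and without lincomycin. Both mutants carry 1 allele each in the Col-0 background. GUN1 is a pentatricopeptide repeat protein of plastids and ABI4 a transcription factor. All plants were 5 days old, raised at 21 °C on half-strength Murashige-Skoog plates with 1% sucrose, in cycles of light (20 µmol per m2 and s) and darkness. Lincomycin is given as 220 µg/ml in the treatment protocol and as 200 µg/ml in the source name. For gun1-1 without lincomycin replicate 2 the genotype tag lists all 3 genotypes, and its title was followed.

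UGTs move a sugar from a UDP-sugar onto small acceptors such as hormones, flavonoids, phenolic acids, sterols and foreign compounds, which changes the acceptor's activity, solubility and place in the cell. The enzymes share a conserved motif that binds the UDP-sugar and are sorted by sequence into lettered groups. Many of their genes stand in tandem clusters. The genes GUN1 and ABI4 are not analysed here by name.

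Array medians lay between 5.44 and 5.52 on the log2 scale, and replicate arrays correlated at 0.9903 to 0.9963 across probe sets, which are not independent. Among markers of the tissues in a seedling, 7 photosynthetic genes were measured. Their mean log2 value per array was 10.65 to 10.71 in gun1-1 with lincomycin, 11.04 to 11.10 in gun1-1 without, 9.83 to 9.86 in abi4-102 with, 10.81 to 10.85 in abi4-102 without, 9.63 to 9.72 in Col-0 with and 10.92 to 11.04 in Col-0 without. With lincomycin 3, 7 and 6 of these 7 markers were lower (adjusted p under 0.05) in gun1-1, abi4-102 and Col-0, in that order. Among all probe sets 4.90%, 5.51% and 7.95% were lower. The list medians were -0.41, -0.92 and -1.47, against -0.01, 0.02 and 0.02 for all probe sets. Of 2 root markers EXPA18 was higher with lincomycin in gun1-1 (log2 difference 1.18, SE 0.31, adjusted p = 0.035). The other, EXPA7, did not pass (0.30, adjusted p = 0.574). The mean of these 2 markers was 5.00 and 6.14 on the gun1-1 arrays with lincomycin, so these replicates lay far apart. In the other groups it was 4.81 to 5.38. Of 3 epidermis and guard cell markers none passed. The part of these markers in the UGT results was not tested. In whole seedlings fewer cells of a type and less RNA per cell cannot be told apart.

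Differences are on the log2 scale with their standard error (SE). A gene was called where the adjusted p, from limma with the Benjamini-Hochberg method over all probe sets, was under 0.05. Of the 47 UGT genes, 15 were called in at least 1 of 10 comparisons (31.9%, against 30.3% of all probe sets), which gave 30 called values, and 32 were never called. The share lay near the background. Where leaving out an array outside the compared groups ended or added a call, the means compared were the same and the shared estimate of the spread differed. In a fit of only the groups compared, UGT73B1, UGT78D2, UGT84A3 and UGT85A4 did not pass for lincomycin in Col-0, UGT74B1 in gun1-1 and UGT73C1 and UGT87A2 in abi4-102. In gun1-1 against Col-0 UGT76B1, UGT84A1 and UGT88A1 did not pass there, and in gun1-1 against abi4-102 UGT84A1. The same fit added UGT73C1 and UGT74B1 for lincomycin in Col-0 (adjusted p = 0.0415 and 0.0489), and UGT72E1 in gun1-1 against Col-0 (0.0445) and against abi4-102 (0.0415).

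In response to lincomycin 2 of 47 UGT genes were called in gun1-1, both lower (4.26%, against 10.7% of all probe sets, 5.79% higher and 4.90% lower). In abi4-102 7 were called, 3 higher and 4 lower (14.9%, against 13.2%, of which 7.65% higher and 5.51% lower). In Col-0 6 were called, 2 higher and 4 lower (12.8%, against 17.4%, of which 9.40% higher and 7.95% lower). These shares lay below or near the background. The median log2 difference of the 47 genes was 0.05 in gun1-1, -0.08 in abi4-102 and -0.02 in Col-0, and that of all probe sets was -0.01, 0.02 and 0.02. UGT genes had a median SE of 0.17, against 0.14 for all probe sets.

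With lincomycin in both genotypes, 6 UGT genes were called between gun1-1 and Col-0 (12.8%, against 10% of all probe sets). Of these 5 were higher in gun1-1 (10.6%, against 5.98%) and 1 was lower (2.13%, against 4.04%). Between gun1-1 and abi4-102 8 were called, all higher in gun1-1 (17.0%, against 6.02% of all probe sets higher and 4.87% lower). These comparisons share the gun1-1 arrays, so their calls are not separate evidence. The median difference of all 47 genes was 0.04 in both, against -0.03 and -0.02 for all probe sets. Between abi4-102 and Col-0 with lincomycin no UGT gene was called (0.457% of all probe sets were), and 2 of 47 had an unadjusted p under 0.05.

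**Figure D1:**
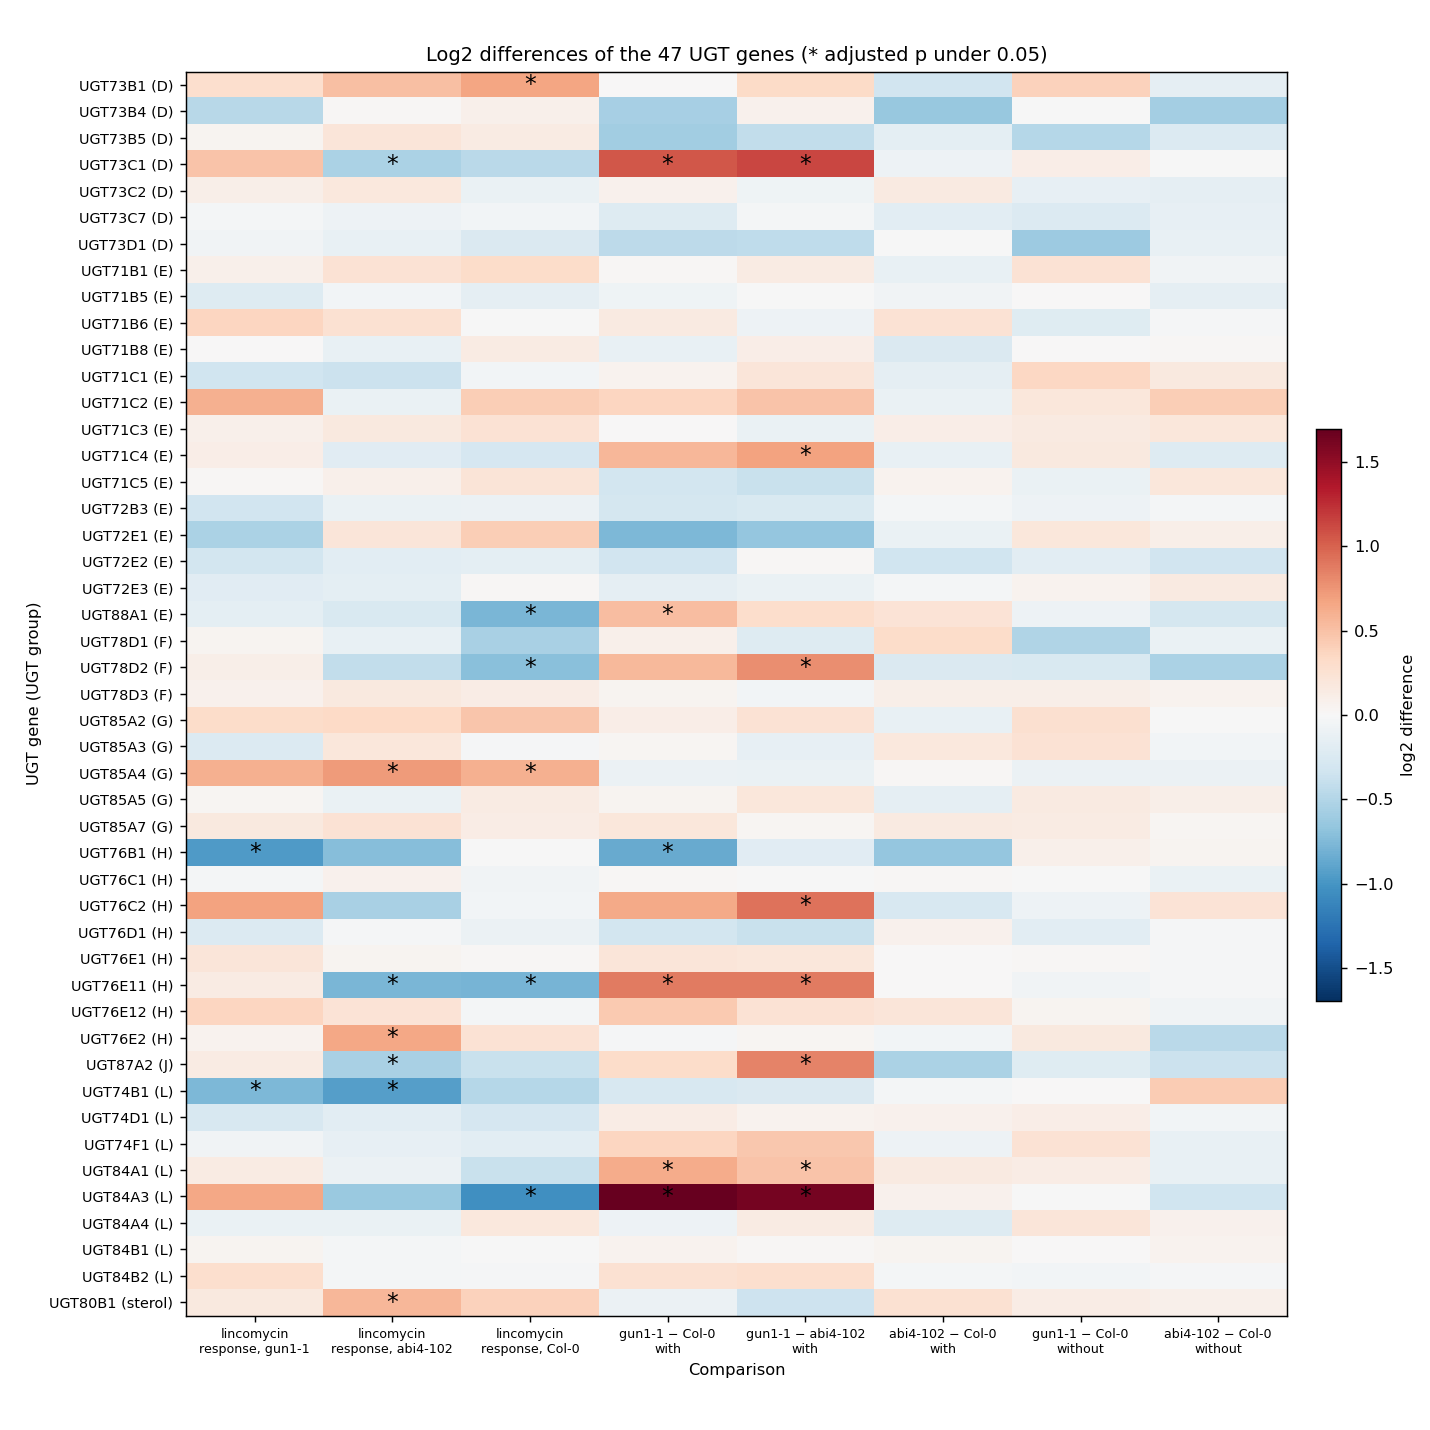
Log2 differences of the 47 UGT genes (rows, with their UGT group) in 8 comparisons (columns). Red is higher and blue lower in the group named first or with lincomycin, and an asterisk marks an adjusted p under 0.05. The columns for gun1-1 minus Col-0 and gun1-1 minus abi4-102 with lincomycin hold the deepest reds, UGT84A3 and UGT73C1, and the 3 columns on the right hold no asterisk.

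Among the genes for glucose esters of phenolic acids, UGT84A3 (AT4G15490), whose enzyme glucosylates hydroxycinnamic acids, differed most. It had 7.18 and 7.78 in gun1-1 with lincomycin, 6.06 and 5.67 in abi4-102 with lincomycin, and 6.28 and 5.30 in Col-0 with lincomycin. Its values without lincomycin were 6.98 and 6.66 in gun1-1, 6.86 and 6.14 in abi4-102, and 6.82 and 6.85 in Col-0. Both gun1-1 arrays with lincomycin stood above the other 10 arrays. UGT84A3 was 3.23-fold higher in gun1-1 than in Col-0 with lincomycin (log2 difference 1.69, SE 0.33, adjusted p = 0.00741) and 3.07-fold higher than in abi4-102 (1.62, adjusted p = 0.00942). In Col-0 it was 2.06-fold lower with lincomycin (-1.04, adjusted p = 0.0495). The response in gun1-1 was 0.66 (adjusted p = 0.227), and the difference of the responses, gun1-1 minus Col-0, was 1.70 (SE 0.46) and did not pass (adjusted p = 0.0686).

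The Col-0 replicates with lincomycin were 0.98 apart for UGT84A3. Without Col-0 with lincomycin replicate 1 the difference of the responses was 2.20 (adjusted p = 0.0207), and without replicate 2 the Col-0 response was -0.55 (adjusted p = 0.323). That response was also lost without either Col-0 array without lincomycin, either gun1-1 array without it or either abi4-102 array with it. Without gun1-1 with lincomycin replicate 2 neither contrast of gun1-1 passed, at 1.39 against Col-0 and 1.32 against abi4-102 (adjusted p = 0.068 and 0.0796), and the contrast with abi4-102 was also lost without abi4-102 with lincomycin replicate 2.

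UGT84A1 (AT4G15480), of the same kind and next to it in the genome, had 4.88 and 5.13 in gun1-1 with lincomycin, 4.58 and 4.46 in abi4-102 with lincomycin, and 4.27 and 4.47 in Col-0 with lincomycin. Without lincomycin its values were 4.92 and 4.80 in gun1-1, 4.69 and 4.56 in abi4-102, and 4.81 and 4.68 in Col-0. With lincomycin the gun1-1 arrays lay above those of both other genotypes. UGT84A1 was 1.55-fold higher in gun1-1 than in Col-0 (0.63, SE 0.13, adjusted p = 0.0094) and 1.39-fold higher than in abi4-102 (0.48, adjusted p = 0.0357). No response to lincomycin passed for it (0.14 in gun1-1, -0.10 in abi4-102 and -0.38 in Col-0). The first difference was lost without Col-0 with lincomycin replicate 1 or gun1-1 with lincomycin replicate 2 (adjusted p up to 0.0722), and the second without gun1-1 with lincomycin replicate 2, any abi4-102 array or either Col-0 array without lincomycin (up to 0.197). UGT84A4, the third gene of this run, was not called in any comparison, and its difference between gun1-1 and Col-0 with lincomycin was -0.09 (95% interval -0.50 to 0.33).

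Of the flavonoid genes, UGT78D2 (AT5G17050), which encodes the flavonoid 3-O-glucosyltransferase, had 8.96 and 8.81 in gun1-1 with lincomycin, 8.17 and 8.02 in abi4-102 with lincomycin, and 8.63 and 8.04 in Col-0 with lincomycin. In the untreated groups it had 8.91 and 8.66 in gun1-1, 8.73 and 8.30 in abi4-102, and 9.05 on both arrays in Col-0. The Col-0 arrays with lincomycin lay below those without. UGT78D2 was 1.64-fold lower with lincomycin in Col-0 (-0.71, SE 0.20, adjusted p = 0.0286) and 1.73-fold higher in gun1-1 than in abi4-102 with lincomycin (0.79, SE 0.20, adjusted p = 0.0266). Its response was 0.10 in gun1-1, and the difference from Col-0 of 0.81 did not pass (adjusted p = 0.152). Without Col-0 with lincomycin replicate 1 that difference was 1.11 (adjusted p = 0.0405). The Col-0 response was lost without Col-0 with lincomycin replicate 2 (-0.42, adjusted p = 0.204) or either Col-0 array without lincomycin, and the contrast with abi4-102 without any 1 of its 4 arrays. UGT78D1, for flavonol rhamnosylation, and UGT78D3, for flavonol arabinosylation, were never called, and their responses in Col-0 were -0.54 (SE 0.24, adjusted p = 0.157) and 0.13 (SE 0.13).

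UGT76E11 (AT3G46670), whose enzyme glucosylates flavonols in vitro, had 4.83 and 4.75 in gun1-1 with lincomycin, 3.95 and 3.89 in abi4-102 with lincomycin, and 4.1 and 3.73 in Col-0 with lincomycin. Without lincomycin it had 4.52 and 4.78 in gun1-1, 4.87 and 4.52 in abi4-102, and 4.88 and 4.54 in Col-0. The 4 arrays of abi4-102 and Col-0 with lincomycin lay below the other 8. Lincomycin lowered it 1.71-fold in abi4-102 (-0.78, SE 0.17, adjusted p = 0.0139) and 1.73-fold in Col-0 (-0.79, adjusted p = 0.00858), and the response in gun1-1 was 0.14 (95% interval -0.24 to 0.52). With lincomycin UGT76E11 was 1.83-fold higher in gun1-1 than in either other genotype (0.87 in both, adjusted p = 0.00824 against Col-0 and 0.00829 against abi4-102). The difference of the responses, gun1-1 minus Col-0, was 0.93 (SE 0.24) and did not pass (adjusted p = 0.0588). It passed without Col-0 with lincomycin replicate 1 (1.12, adjusted p = 0.0415), with each array centred on its median (0.97, adjusted p = 0.0426) and with the replicate number as a block (0.93, adjusted p = 0.0497). Without Col-0 with lincomycin replicate 2 both the Col-0 response and the contrast of gun1-1 with Col-0 were lost (adjusted p of 0.0644 for the contrast), the Col-0 response also without Col-0 without lincomycin replicate 1 (0.0881), and the abi4-102 response without any abi4-102 array but replicate 2 without lincomycin (up to 0.11).

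UGT88A1 (AT3G16520), whose enzyme glucosylates quercetin in vitro, had 9.69 and 9.57 in gun1-1 with lincomycin, 9.10 and 9.55 in abi4-102 with lincomycin, and 9.11 and 9.10 in Col-0 with lincomycin. Without lincomycin the values were 9.88 and 9.71 in gun1-1, 9.62 and 9.56 in abi4-102, and 9.94 and 9.82 in Col-0. It was 1.72-fold lower with lincomycin in Col-0 (-0.78, SE 0.14, adjusted p = 0.00363), a call kept without any 1 of the 12 arrays. The responses of -0.17 in gun1-1 and -0.26 in abi4-102 did not pass, nor did the difference of the responses, 0.61 for gun1-1 minus Col-0 (adjusted p = 0.142) and 0.52 for abi4-102 minus Col-0 (adjusted p = 0.444). With lincomycin it was 1.44-fold higher in gun1-1 than in Col-0 (0.53, adjusted p = 0.042), and this was lost without either gun1-1 array with lincomycin, any Col-0 array or either abi4-102 array without lincomycin (adjusted p up to 0.146).

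**Figure D2:**
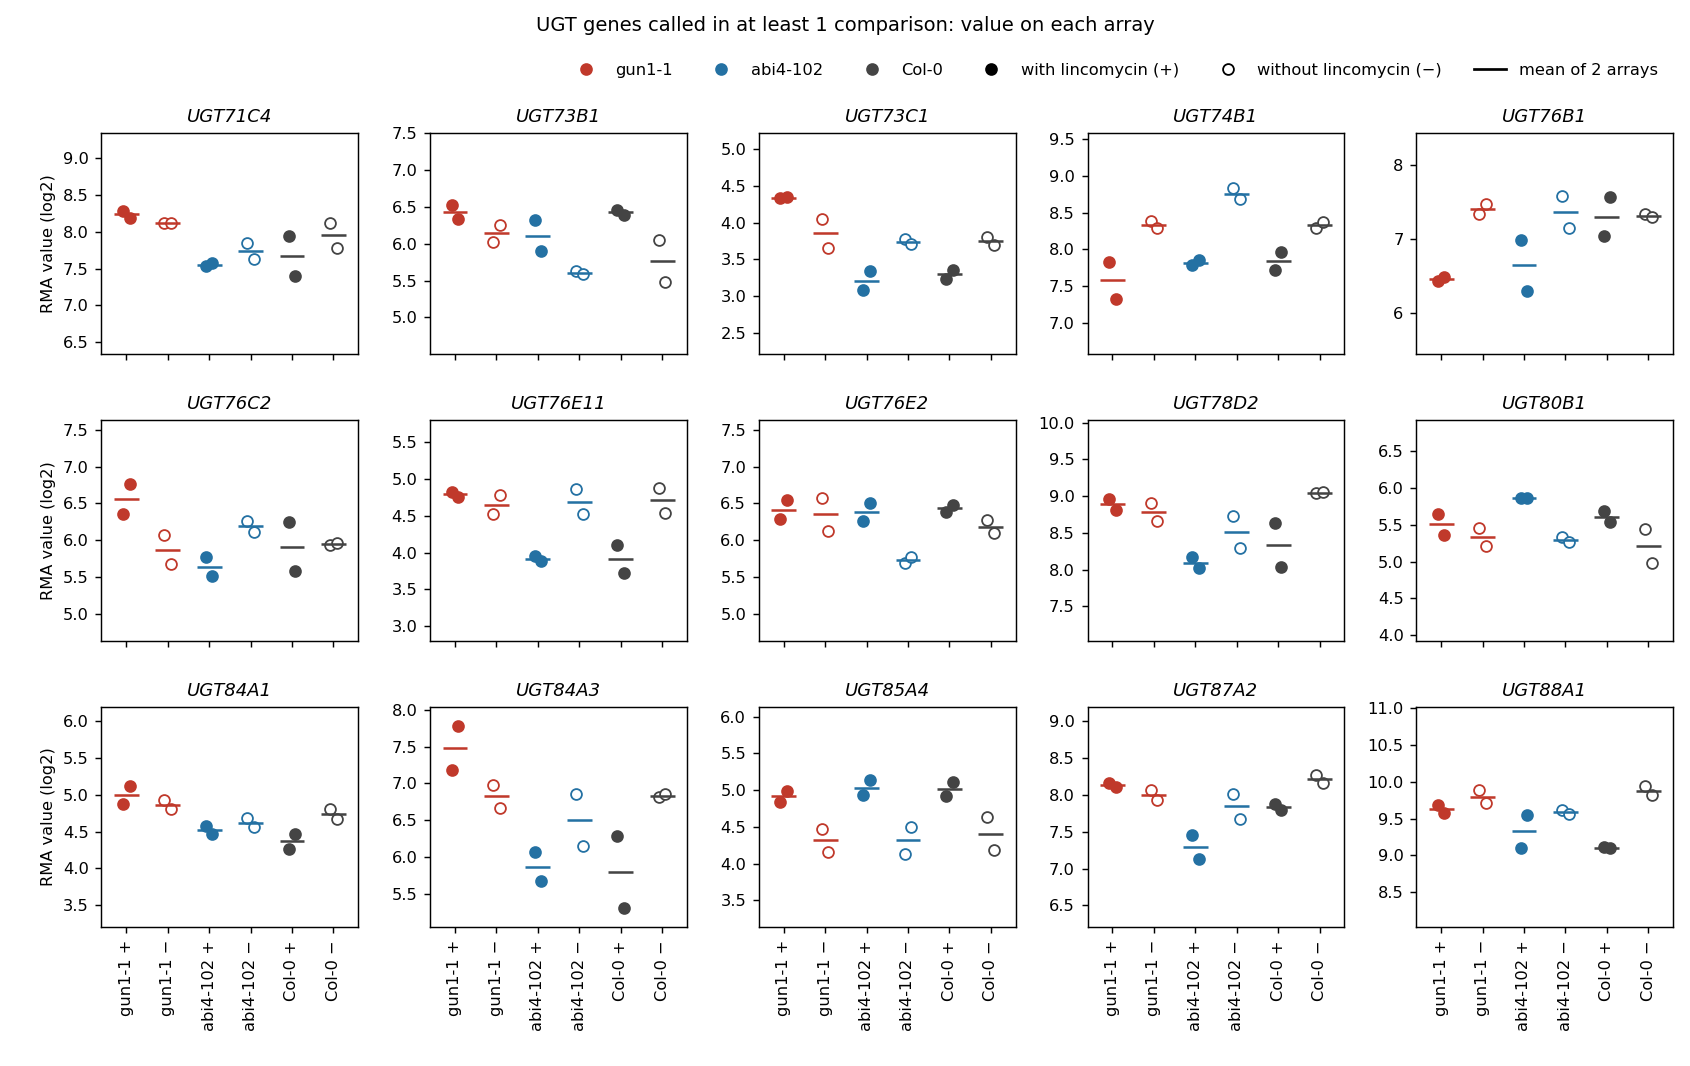
Values on each array (points; RMA, log2) of the 15 UGT genes called in at least 1 comparison, with the mean of 2 arrays as a bar. Each panel has its own position on the axis but the same span. Filled points are with and open points without lincomycin. In UGT73C1, UGT84A3 and UGT76C2 the 2 gun1-1 arrays with lincomycin stand above the other 10, and in UGT74B1 all 6 arrays with lincomycin lie below the 6 without.

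Among the cytokinin genes UGT73C1 (AT2G36750), whose enzyme glucosylates cytokinins at an oxygen, was the only UGT gene whose lincomycin response in gun1-1 passed as different from that in Col-0 (2.13% of the 47, against 4.38% of all probe sets, 3.22% with a higher response). It had 4.33 and 4.35 in gun1-1 with lincomycin, 3.08 and 3.34 in abi4-102 with lincomycin, and 3.24 and 3.36 in Col-0 with lincomycin. Its values without lincomycin were 4.06 and 3.65 in gun1-1, 3.78 and 3.71 in abi4-102, and 3.80 and 3.70 in Col-0. The gun1-1 arrays with lincomycin stood above the other 10, and the 4 arrays of abi4-102 and Col-0 with lincomycin below the other 8.

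UGT73C1 was 2.19-fold higher in gun1-1 than in abi4-102 with lincomycin (1.13, SE 0.14, adjusted p = 0.000693) and 2.06-fold higher than in Col-0 (1.05, SE 0.14, adjusted p = 0.00101). Both calls were kept without any 1 of the 12 arrays. The response was 0.94 higher in gun1-1 than in Col-0 (SE 0.20, adjusted p = 0.0265), with responses of 0.49 in gun1-1 and -0.45 in Col-0 that did not pass (adjusted p = 0.0538 and 0.0537). The gun1-1 response passed with an intensity trend, with centred arrays and without any 1 of 3 arrays (adjusted p from 0.0297), and the Col-0 response with these 2 settings, with only the groups compared and without any 1 of 4 arrays (from 0.028). In abi4-102 UGT73C1 was 1.45-fold lower with lincomycin (-0.54, adjusted p = 0.0331). The difference of the responses did not pass without any 1 of 7 arrays, namely all 4 of Col-0, both of gun1-1 with lincomycin and gun1-1 without lincomycin replicate 2 (0.74 to 1.00, adjusted p up to 0.11). The abi4-102 response was lost without abi4-102 with lincomycin replicate 1 or any 1 of the abi4-102 and Col-0 arrays without lincomycin (adjusted p up to 0.182).

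UGT76C2 (AT5G05860), whose enzyme glucosylates cytokinins at a nitrogen, had 6.35 and 6.76 in gun1-1 with lincomycin, 5.77 and 5.51 in abi4-102 with lincomycin, and 6.25 and 5.57 in Col-0 with lincomycin. Without lincomycin it had 6.06 and 5.67 in gun1-1, 6.26 and 6.11 in abi4-102, and 5.94 and 5.97 in Col-0. It was 1.89-fold higher in gun1-1 than in abi4-102 with lincomycin (0.92, SE 0.22, adjusted p = 0.0232). The difference from Col-0 was 0.64 (adjusted p = 0.101), and the responses were 0.69 in gun1-1 (adjusted p = 0.0728), -0.55 in abi4-102 (0.14) and -0.04 in Col-0. Without Col-0 with lincomycin replicate 1 the difference from Col-0 was 0.98 (adjusted p = 0.0221), and without either Col-0 array with lincomycin the gun1-1 response passed (adjusted p = 0.0332). The call was lost without gun1-1 with lincomycin replicate 2 (0.71, adjusted p = 0.156) or either abi4-102 array with lincomycin. Its neighbour UGT76C1, with the same activity, was never called, and the 95% interval of its difference between gun1-1 and abi4-102 with lincomycin was -0.43 to 0.42.

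UGT74B1 (AT1G24100) encodes the S-glucosyltransferase of glucosinolate synthesis. It had 7.83 and 7.32 with lincomycin and 8.39 and 8.29 without in gun1-1. In abi4-102 it had 7.78 and 7.85 with lincomycin and 8.83 and 8.68 without. In Col-0 it had 7.73 and 7.97 with lincomycin and 8.29 and 8.37 without. All 6 arrays with lincomycin lay below the 6 without. The gene was 1.69-fold lower with lincomycin in gun1-1 (-0.76, SE 0.16, adjusted p = 0.014) and 1.92-fold lower in abi4-102 (-0.94, adjusted p = 0.00377). In Col-0 the difference was -0.48 and did not pass (adjusted p = 0.0623). It passed in 5 alternatives, namely with only the groups compared (0.0489), with an intensity trend (0.0427), among the upper 60% of probe sets (0.0462) and without either gun1-1 array with lincomycin (0.0195). The responses of the genotypes were not shown to differ (-0.28 for gun1-1 minus Col-0 and -0.46 for abi4-102 minus Col-0, adjusted p = 0.621 and 0.554). The abi4-102 call was kept without any 1 of the 12 arrays, and the gun1-1 call was lost without gun1-1 with lincomycin replicate 2 or gun1-1 without lincomycin replicate 1 (adjusted p up to 0.0787).

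UGT76B1 (AT3G11340), whose enzyme glucosylates isoleucic acid, salicylate and N-hydroxypipecolate in immunity, had 6.43 and 6.48 in gun1-1 with lincomycin, 6.99 and 6.30 in abi4-102 with lincomycin, and 7.04 and 7.57 in Col-0 with lincomycin. Without lincomycin it had 7.34 and 7.47 in gun1-1, 7.58 and 7.14 in abi4-102, and 7.34 and 7.29 in Col-0. It was 1.94-fold lower with lincomycin in gun1-1 (-0.95, SE 0.23, adjusted p = 0.0274) and was the only UGT gene called lower in gun1-1 than in Col-0 with lincomycin (1.80-fold, -0.85, adjusted p = 0.0422). The responses were -0.72 in abi4-102 (adjusted p = 0.069, and -1.07 with 0.0241 without abi4-102 with lincomycin replicate 1) and -0.01 in Col-0 (95% interval -0.53 to 0.50). The difference of the responses, gun1-1 minus Col-0, was -0.94 and did not pass (adjusted p = 0.166). Leaving out any 1 of the 4 gun1-1 arrays ended the gun1-1 call (adjusted p up to 0.115), and the same 4, either Col-0 array without lincomycin or Col-0 with lincomycin replicate 2 the contrast with Col-0 (-0.59 without the last, adjusted p = 0.232).

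**Figure D3:**
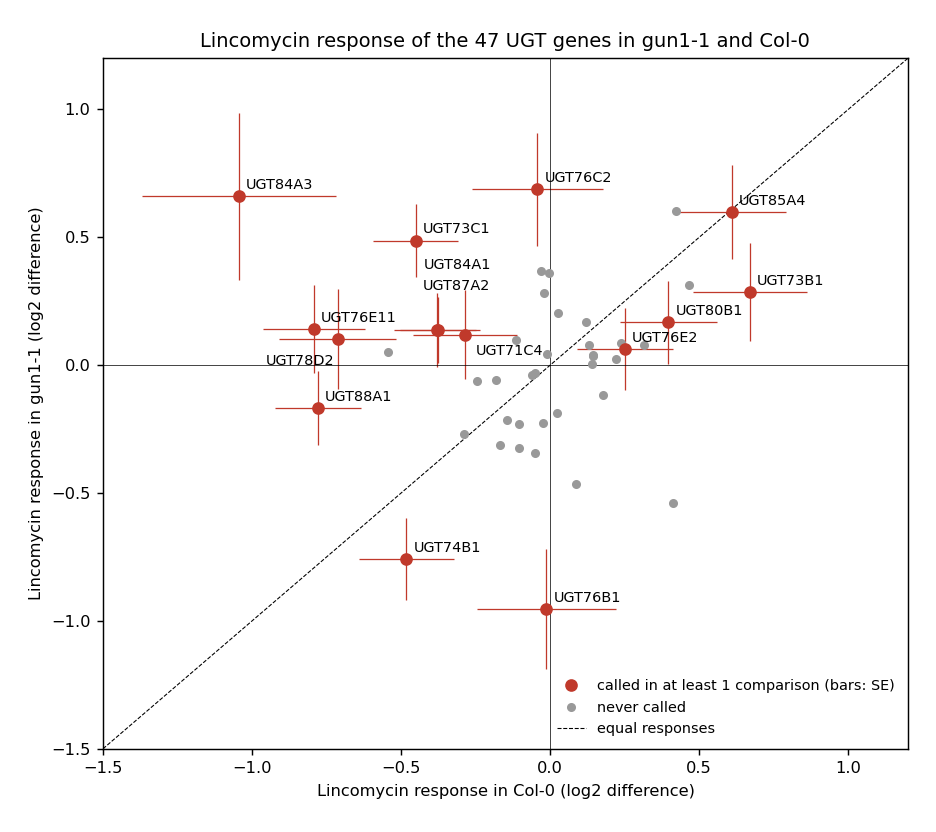
Response to lincomycin (log2 difference, with minus without) of the 47 UGT genes in gun1-1 (vertical axis) against Col-0 (horizontal axis). Red points are the 15 genes called in at least 1 comparison, with bars of 1 SE in both directions, and the dashed line marks equal responses. UGT84A3, UGT73C1 and UGT76E11 lie above the line at upper left, UGT76B1 lies below it, and UGT85A4 and UGT80B1 lie near it.

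Of the remaining called genes, UGT87A2 (AT2G30140), whose loss delays flowering, was lowest on the abi4-102 arrays with lincomycin. It had 8.17 and 8.11 in gun1-1 with lincomycin, 7.46 and 7.13 in abi4-102 with lincomycin, and 7.88 and 7.79 in Col-0 with lincomycin. Without lincomycin it had 8.07 and 7.93 in gun1-1, 8.02 and 7.68 in abi4-102, and 8.27 and 8.16 in Col-0. It was 1.80-fold higher in gun1-1 than in abi4-102 with lincomycin (0.85, SE 0.14, adjusted p = 0.00381), a call kept without any 1 of the 12 arrays. In abi4-102 it was 1.47-fold lower with lincomycin (-0.55, adjusted p = 0.0302), which was lost without abi4-102 without lincomycin replicate 1 (-0.38, adjusted p = 0.212) or abi4-102 with lincomycin replicate 2. Of the 47 genes it had the smallest p between abi4-102 and Col-0 with lincomycin (-0.54, adjusted p = 0.19), and UGT76B1 the next (-0.66, adjusted p = 0.316).

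UGT80B1 (AT1G43620), a sterol glucosyltransferase, had 5.86 and 5.87 with lincomycin and 5.34 and 5.26 without in abi4-102. In gun1-1 it had 5.65 and 5.36 with lincomycin and 5.46 and 5.22 without, and in Col-0 5.68 and 5.53 with and 5.44 and 4.98 without. It was 1.48-fold higher with lincomycin in abi4-102 (0.56, SE 0.16, adjusted p = 0.0446), lost without any abi4-102 array or either Col-0 array with lincomycin (adjusted p up to 0.21), and its responses of 0.17 in gun1-1 and 0.40 in Col-0 did not pass. Without Col-0 without lincomycin replicate 1 the Col-0 response was 0.63 (adjusted p = 0.0439). UGT76E2 (AT5G59590) was 1.57-fold higher with lincomycin in abi4-102 (0.66, SE 0.16, adjusted p = 0.0223). It had 6.27 and 6.51 with lincomycin and 5.69 and 5.77 without in abi4-102, and both arrays without lincomycin were the lowest of the 12. The call was lost without any 1 of 3 abi4-102 arrays, all but abi4-102 with lincomycin replicate 1 (adjusted p up to 0.121).

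UGT85A4 (AT1G78270) was higher on all 6 arrays with lincomycin than on the 6 without. It had 4.84 and 4.99 with lincomycin and 4.47 and 4.16 without in gun1-1. In abi4-102 it had 4.93 and 5.13 with and 4.13 and 4.50 without, and in Col-0 4.92 and 5.12 with and 4.64 and 4.18 without. It was called in abi4-102 (1.64-fold higher, 0.72, SE 0.18, adjusted p = 0.0273) and Col-0 (1.52-fold, 0.61, adjusted p = 0.0428). The difference in gun1-1 was 0.60 (adjusted p = 0.0618), and the responses were not shown to differ (-0.01 for gun1-1 minus Col-0, 95% interval -0.58 to 0.56). The abi4-102 call was lost without any 1 of 3 abi4-102 arrays, all but abi4-102 without lincomycin replicate 2 (adjusted p up to 0.184), and the Col-0 call without Col-0 without lincomycin replicate 2 or any 1 of the 6 arrays with lincomycin (up to 0.338).

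UGT73B1 (AT4G34138) was 1.59-fold higher with lincomycin in Col-0 (0.67, SE 0.19, adjusted p = 0.0337), at 6.47 and 6.39 with and 6.04 and 5.47 without. Its responses were 0.29 in gun1-1 and 0.51 in abi4-102, neither called. The Col-0 call was lost without Col-0 without lincomycin replicate 2 (0.39, adjusted p = 0.298), either Col-0 array with lincomycin or either abi4-102 array without. UGT71C4 (AT1G07250) was 1.61-fold higher in gun1-1, at 8.28 and 8.19, than in abi4-102, at 7.53 and 7.57, both with lincomycin (0.69, SE 0.17, adjusted p = 0.0292). Without lincomycin it had 8.12 and 8.11 in gun1-1, 7.85 and 7.63 in abi4-102, and 8.13 and 7.79 in Col-0. Here too the gun1-1 arrays lay above those of abi4-102, and that contrast without lincomycin was not tested. In Col-0 with lincomycin UGT71C4 had 7.94 and 7.40, and its difference of 0.57 between gun1-1 and Col-0 did not pass (adjusted p = 0.0686). That difference passed with the replicate block (0.0398), an intensity trend (0.043), centred arrays (0.0405) and without Col-0 with lincomycin replicate 1 (0.84, adjusted p = 0.0145). The call against abi4-102 was lost without any 1 of the 4 arrays compared (adjusted p up to 0.116).

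Apart from UGT73C1, no UGT gene had a response to lincomycin called as different between a mutant and Col-0. For abi4-102 minus Col-0 no UGT gene and 0% of all probe sets were called by limma, and an intensity trend with robust estimates gave no UGT gene either. At an unadjusted p under 0.05 there were 1 of 47 UGT genes, UGT88A1, and 2230 probe sets (9.80%). Without lincomycin no UGT gene was called in gun1-1 against Col-0 (0.0220% of all probe sets) or in abi4-102 against Col-0 (1.68%). At an unadjusted p under 0.05 there were 1 and 4 of the 47 (6.74% and 14.7% of all probe sets). The smallest p belonged to UGT73D1 (-0.62, SE 0.20, adjusted p = 0.604) and UGT78D1 (-0.51, adjusted p = 0.752) in gun1-1. In abi4-102 it belonged to UGT76E2 (-0.45, SE 0.16, adjusted p = 0.209) and UGT78D2 (-0.53, adjusted p = 0.225).

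By UGT group, the genes called in any comparison, as 30.3% of all probe sets were, numbered 4 of 8 in group H (UGT76B1, UGT76C2, UGT76E11 and UGT76E2), 3 of 8 in L (UGT74B1, UGT84A1 and UGT84A3), 2 of 7 in D (UGT73B1 and UGT73C1) and 2 of 14 in E (UGT71C4 and UGT88A1). There was 1 of 3 in F, 1 of 5 in G and the single genes of group J and of the sterol type. Of the 11 UGT genes whose mean was below the lower quartile of all probe sets (3.69), none was called in any comparison, against 4.15% of all probe sets below it. Of the 20 above the median of all probe sets (5.48), 10 were called, against 46.8% of all probe sets above it. Both counts lay near the background.

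Among the 47 genes 30 stand in 13 runs of neighbours with at most 1 other protein-coding gene between them. A called gene occurred in 7 of these runs, and only in the run of UGT84A1, UGT84A3 and UGT84A4 were 2 called. Of the 30 genes 8 were called in at least 1 comparison, against 30.3% of all probe sets, so this count lay near the background. UGT73C1 stood beside UGT73C2, whose difference between gun1-1 and Col-0 with lincomycin was 0.07 (95% interval -0.22 to 0.36). UGT76E11 stood beside UGT76E12, also active on flavonols in vitro, at 0.45 (0.06 to 0.84, adjusted p = 0.154). UGT78D2 stood beside UGT78D3, at 0.05 (-0.22 to 0.33). Differences between neighbours were not tested. Tandem copies can be alike in sequence, so how much of a neighbour's transcript a probe set reads is uncertain. The probe set names do not mark any of the 47 as shared between transcripts.

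**Figure D4:**
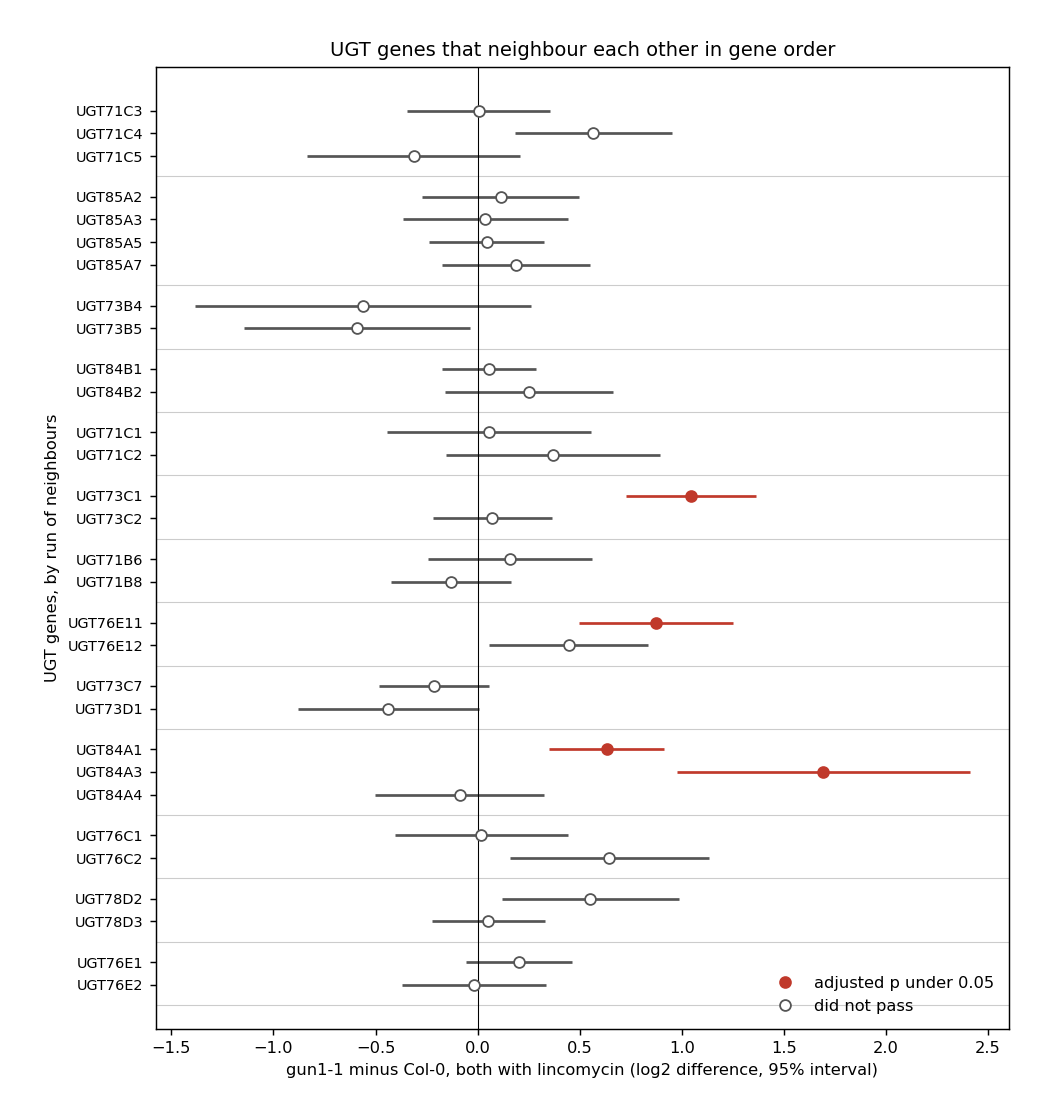
Log2 difference between gun1-1 and Col-0, both with lincomycin, with its 95% interval (bars), for the 30 UGT genes in 13 runs of neighbours, separated by grey lines. Filled red points have an adjusted p under 0.05. In the runs of UGT73C1, UGT76E11 and UGT84A3 a called gene stands beside one that did not pass.

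The 32 genes never called had ranges over the 12 arrays of 0.17 (UGT84B1) to 1.56 (UGT73B4), and the median range of all 47 was 0.84. UGT72E1, UGT72E2 and UGT72E3, whose enzymes glucosylate monolignols and their aldehydes, had responses in gun1-1 of -0.54, -0.31 and -0.19 and in Col-0 of 0.41, -0.17 and 0.02. UGT72E1 had 7.27 and 7.40 in gun1-1 with lincomycin and 7.97 and 8.23 in Col-0 with lincomycin. Its difference of responses, gun1-1 minus Col-0, was -0.95 (SE 0.46, adjusted p = 0.35), the largest in size of any gene never called. The gun1-1 arrays without lincomycin were 1.28 apart, at 8.52 and 7.23. Without replicate 2 of them, the array with the mixed genotype tag, the difference was -1.59. Replicate 2 itself, at 7.23, lay below both gun1-1 arrays with lincomycin. The size of the difference therefore depended on which of these 2 arrays was kept.

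UGT74F1, for salicylate, was 0.45 higher in gun1-1 than in abi4-102 with lincomycin (SE 0.15, adjusted p = 0.0803), and 0.63 higher without gun1-1 with lincomycin replicate 1 (adjusted p = 0.0409). UGT71B6 and UGT71C5, for abscisic acid, had responses in gun1-1 of 0.36 and 0.02 (adjusted p = 0.234 and 0.965). UGT74D1 and UGT84B1, for auxin, had responses in gun1-1 of -0.27 (95% interval -0.58 to 0.04) and 0.04 (-0.19 to 0.27). UGT73B4 and UGT73B5, known from responses to pathogens, were at -0.56 and -0.59 in gun1-1 minus Col-0 with lincomycin (adjusted p = 0.421 and 0.183). None of these passed with all 12 arrays, and intervals such as that of UGT73B4 (-1.39 to 0.26) leave room for differences as large as the called ones.

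Genes around the UGT reactions were few on the array by name. Of 3 flavonoid synthesis genes CHIL, a helper of chalcone synthesis, was lower with lincomycin in gun1-1 (-1.23), abi4-102 (-1.21) and Col-0 (-1.81, SE 0.23, adjusted p = 0.000351). Of 3 phenylpropanoid genes HCT, of lignin precursor synthesis, was lower in gun1-1 (-0.48, adjusted p = 0.0265) and none was called in Col-0. Of 2 glucosinolate synthesis genes BCAT4, of methionine chain elongation, was higher in gun1-1 than in abi4-102 with lincomycin (1.36, SE 0.39, adjusted p = 0.0463). The 1 gene each for UDP-sugar supply, salicylate and vacuolar transport was not called, and no cytokinin metabolism gene of the list was measured.

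Glutathione transferases also conjugate foreign compounds. Of 13, 1 was lower with lincomycin in gun1-1, 2 in abi4-102 and 2 in Col-0, and none was higher. GSTU18 was 2.04 higher in gun1-1 than in Col-0 with lincomycin (SE 0.13, adjusted p = 1.87e-05), and its response differed by 2.00 (adjusted p = 0.000611). Beta-glucosidases remove the glucose that UGTs add. Of 22, 1 was higher and 1 lower with lincomycin in gun1-1, 3 and 1 in abi4-102 and 2 and 2 in Col-0. Of all probe sets 5.79% were higher and 4.90% lower in gun1-1, 7.65% and 5.51% in abi4-102 and 9.40% and 7.95% in Col-0. The counts of both lists are small, and whether they differ from these shares was not tested. BGLU25 was higher in all 3 genotypes (3.19 in gun1-1, 1.59 in abi4-102 and 1.58 in Col-0), with a response 1.61 larger in gun1-1 than in Col-0 (adjusted p = 0.00631), and BGLU40 was lower in all 3 (-0.995, -1.59 and -1.90). In gun1-1 minus Col-0, 2 of the 22 responses were called higher, BGLU25 and BGLU40, and 1 lower, BGLU44 (-0.83, adjusted p = 0.0413). Among all probe sets 4.38% were called there, 3.22% higher. BGLU44 was higher with lincomycin in abi4-102 and Col-0 (0.91 in both), and its response in gun1-1 was 0.07. The median response of these lists in Col-0 was -0.09 for glutathione transferases and 0.02 for beta-glucosidases, against 0.02 for all probe sets.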

How the data were processed

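The deposited table holds log2 values that the authors made with RMA, per the submitters' processing notes; its version is not given in the sources used here. RMA corrects background, equalises the arrays and summarises probes, so a change in total mRNA would not show. The number of arrays limits the precision. Of 22810 probe sets 64 controls were left out. Genes came from the array annotation (13513 probe sets name 1 gene, 503 several, 8730 are unnamed here), and all 47 UGT genes matched the TAIR10.1 gene table, used for names and gene order. No sequences are shown. All 12 arrays were fitted with 6 group means in limma 3.58.1 and R 4.3.3 (lmFit, eBayes; 6 residual degrees of freedom), two-sided, with p-values adjusted over 22746 probe sets within each comparison; the fit was tested on simulated data.

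The UGT genes, the other gene lists and the rule for named genes were chosen with earlier results of these data known. By that rule every called UGT gene is named, those with a called difference of at least 0.8 get all array values, and the 2 genes with the smallest p stand where none was called; further array values and genes were added after their values were seen. No label says that replicates were separate cultures; p-values therefore reflect the spread of these arrays alone, part of which may be technical. Also tried were a replicate block, a fit of only the compared groups, an intensity trend plus robust prior, centring on array medians, the upper 60% of probe sets and leaving out each array.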

Additional observations from a re-analysis of the deposited data

Results flagged for a closer look

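UGT73C1 stands out because its response to lincomycin differed between gun1-1 and Col-0 by a test of the difference itself. The response was 0.94 higher in gun1-1 than in Col-0 (SE 0.20, adjusted p = 0.0265 by limma), with both gun1-1 arrays higher and both Col-0 arrays lower with lincomycin than without. Over the alternatives in which the probe set was tested the difference ran from 0.74 to 1.14 and the adjusted p from 0.0165 to 0.11. It was not among the upper 60% of probe sets by mean and was not tested there. Its mean over the 12 arrays was 3.70 on the log2 scale, against a lower quartile of 3.69 for all probe sets.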

How the results depend on the processing

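Of the 30 called values 6 were called under every alternative run: UGT88A1 with lincomycin in Col-0, UGT74B1 with lincomycin in abi4-102, UGT73C1 in gun1-1 against Col-0 and against abi4-102, and UGT76E11 and UGT87A2 in gun1-1 against abi4-102. None of the 30 changed direction. Only centring and leaving out an array of the compared groups could change a direction, since the other alternatives keep the same differences of means. Counts of called UGT genes over the fits without 1 array ran from 1 to 3 for lincomycin in gun1-1, from 1 to 7 in abi4-102 and from 1 to 6 in Col-0. They ran from 0 to 3 for the response in gun1-1 minus Col-0, from 3 to 7 for gun1-1 minus Col-0 and from 4 to 9 for gun1-1 minus abi4-102 with lincomycin, and stayed at 0 for the other 4. The Col-0 count of 6 was 1 without Col-0 with lincomycin replicate 2 and 2 without Col-0 without lincomycin replicate 2. The abi4-102 count of 7 was 1 without abi4-102 without lincomycin replicate 1, and 3 or 4 without any 1 of the other 3 abi4-102 arrays. Both gun1-1 calls, UGT74B1 and UGT76B1, were lost without gun1-1 with lincomycin replicate 2 or gun1-1 without lincomycin replicate 1. Called instead were UGT71C2 (1.02) in the first of these fits and UGT73C1 (0.69) in the second, both higher with lincomycin. Without gun1-1 with lincomycin replicate 2 both contrasts of gun1-1 with lincomycin lost calls. Against Col-0 these were UGT76B1, UGT84A1, UGT84A3 and UGT88A1. Against abi4-102 they were UGT71C4, UGT76C2, UGT78D2, UGT84A1 and UGT84A3. UGT71C2 was added in both. The contrast with Col-0 also lost calls without Col-0 with lincomycin replicate 2, and that with abi4-102 without either abi4-102 array with lincomycin.

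With only the groups compared the gun1-1 response gave 1 call, and 4 values passed that did not otherwise, of UGT73C1 and UGT74B1 in Col-0 and of UGT72E1 in gun1-1 against both other genotypes. With each array centred on its median the response of gun1-1 minus Col-0 gave 2, UGT76E11 being added. The upper 60% of probe sets, which held 25 of the 47 genes, gave 4 for lincomycin in abi4-102, 0 for the response of gun1-1 minus Col-0, 3 for gun1-1 minus Col-0 and 5 for gun1-1 minus abi4-102 with lincomycin. Fewer genes were tested there. With the replicate block the response of gun1-1 minus Col-0 gave 2 and lincomycin in Col-0 gave 5, and the other counts stood as without it. Under it UGT85A4 in Col-0 and UGT76B1 and UGT88A1 in gun1-1 against Col-0 did not pass, and UGT71C4 and UGT78D2 passed in the last. An intensity trend ended the calls of UGT84A3 in Col-0 and UGT84A1 against abi4-102, and centring those of UGT85A4 in Col-0 and UGT76B1 against Col-0. Equal replicate numbers were not taken as pairs in the calls. Over 15 pairs of groups their deviations correlated at -0.28 to 0.28, above 0.1 in 3. With 2 arrays per group this cannot show whether some samples were paired. The alternative of the probe set with the lowest mean could not be run, since no UGT gene has several. Of the 11 UGT genes below the lower quartile of signal none was called, against 4.15% of all probe sets there.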

Other observations

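Of the UGT genes never called with all arrays, some passed under an alternative. UGT72E1 was 1.70-fold lower in gun1-1 than in Col-0 with lincomycin (-0.76, adjusted p = 0.187), and this passed without either gun1-1 array without lincomycin (adjusted p = 0.0253), arrays that do not enter the means compared but do enter the shared spread, and also in the fit of only these groups (adjusted p = 0.0445). UGT71C2 had 5.20 and 4.37 in gun1-1 with lincomycin and 4.11 and 4.24 in gun1-1 without. Without gun1-1 with lincomycin replicate 2 its gun1-1 response was 1.02 (adjusted p = 0.0215), against 0.60 (adjusted p = 0.132) with all arrays. UGT84B2 had 3.10 and 3.84 in gun1-1 with lincomycin and 3.14 and 3.24 without, and was never called with all arrays. Without gun1-1 with lincomycin replicate 1 its response in gun1-1 was 0.65. That value rests on the array at 3.84, since the other arrays of the series lay between 3.10 and 3.26. The mean of UGT84B2 over the 12 arrays was 3.26, below the lower quartile of all probe sets (3.69). For UGT71C2 and UGT84B2 these calls were seen only without the array named.

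Among the 47 genes the median distance between replicate arrays was smaller in the groups without lincomycin (0.17 in gun1-1, 0.14 in abi4-102 and 0.13 in Col-0) than in the groups with it (0.22, 0.26 and 0.24, in the same order). This difference was not tested.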
